A study of Mus musculus with 32 samples.

Results

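The genes described are 7 components of the machinery by which a cell senses sterols: Srebf2, Scap, Insig1, Insig2, Mbtps1, Mbtps2 and Stard4. They were chosen by gene name from a list of regulators of the transcription factor SREBP2, and they are 7 of 56748 genes in the count table. None of the 7 is a lipoprotein receptor. Poly(A) RNA was sequenced from mouse primary white adipocytes, the fat-storing cells of white fat, which had been prepared from subcutaneous adipose tissue. The labels give all cells the genotype WT and give no strain, sex or age. The question was what Nfe2l1 and Atf3 do for cholesterol homeostasis in these cells. Both encode transcription factors, the first known for inducing proteasome subunits and the second for its induction by stress. The cells had received siNfe2l1 and siAtf3 together (double silencing), siAtf3, siNfe2l1 or a scrambled siRNA. Each of these 4 sets was then given either cholesterol at 400 µM, bound to methyl-β-cyclodextrin, during 6 h or a control treatment, which makes 8 groups with 4 libraries each. Methyl-β-cyclodextrin is a sugar ring that carries sterols to membranes. Its presence in the control treatment is not stated, so an effect of cholesterol and one of its carrier cannot be told apart. The 4 libraries of a group are called biological replicates.

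SREBP2, the protein of Srebf2, is made as a membrane protein of the endoplasmic reticulum and activates the genes of cholesterol synthesis and uptake once it is cut. Its escort protein SCAP carries it to the Golgi when sterols are low, where the site-1 protease (Mbtps1) and then the site-2 protease (Mbtps2) release its active part. When sterols are high, the proteins of Insig1 and Insig2 hold SCAP back in the endoplasmic reticulum. Insig1 and Srebf2 are themselves activated by SREBP2, which closes a feedback loop, and STARD4, a soluble sterol carrier, moves cholesterol between membranes and is also encoded by an SREBP2 target gene. Much of the body's free cholesterol lies in white adipocytes, at the surface of their lipid droplet and in their membranes.

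The libraries held 23457384 to 33828418 counts each, and all 7 genes were among the 16984 genes that passed the filter on low counts. The lowest count of any of them in any library was 243, for Stard4. Nfe2l1 was at 19.3% and 14.7% of its scramble level in double-silenced and siNfe2l1 cells with cholesterol, and at 23.4% and 15.2% under the control treatment. Atf3 was at 12.8% and 10.3% of its scramble level in double-silenced and siAtf3 cells with cholesterol, and at 57.2% and 37.8% under the control treatment. Its mean in scramble cells was 398 CPM (counts relative to library size) with cholesterol and 26.8 CPM without it. With cholesterol, double-silenced and siAtf3 cells held 50.8 and 40.9 CPM, above unloaded scramble cells. SiNfe2l1 cells with cholesterol were at 67.3% of scramble, with libraries from 134 to 481 CPM. Principal components were taken over only the genes that varied most between the libraries. The first component held 80.2% of the variance of these genes and split the libraries by treatment. On it, siNfe2l1 cholesterol libraries 3 and 4 lay at 27.73 and 24.04, nearer to the control libraries than libraries 1 and 2 of their group at 40.48 and 34.25. All 10 adipocyte markers were detected, with a summed level of 13730 to 16860 CPM in cholesterol libraries and 10030 to 11750 CPM in control libraries. Markers of fibroblasts and fat cell precursors were also abundant, at 2882 to 7897 CPM with cholesterol and 12210 to 22830 CPM under the control treatment, whereas 3 hepatocyte markers summed to at most 0.428 CPM and 1 of them was at 0 throughout. A few other annotated genes overlap the 7 genes in position, each with at most 31 counts in any library.

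Per kilobase of gene length, Insig1 was by far the most abundant of the 7 in scramble control cells, at 153 RPKM (reads per kilobase, relative to library size). Srebf2 followed at 24.6 RPKM, and then Mbtps1 at 13.5, Insig2 at 13.5, Stard4 at 9.64 and Scap at 9.18 RPKM. Mbtps2 was the least abundant, at 2.15 RPKM. Between the highest and the lowest of the 8 group means, Stard4 spanned 4.56-fold, Insig1 3.36-fold and Srebf2 1.88-fold, whereas Mbtps1, Insig2, Mbtps2 and Scap spanned 1.28-fold to 1.40-fold. The genes that varied most were thus the sterol carrier, the more abundant of the 2 retention proteins and the transcription factor itself.

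**Figure D1:**
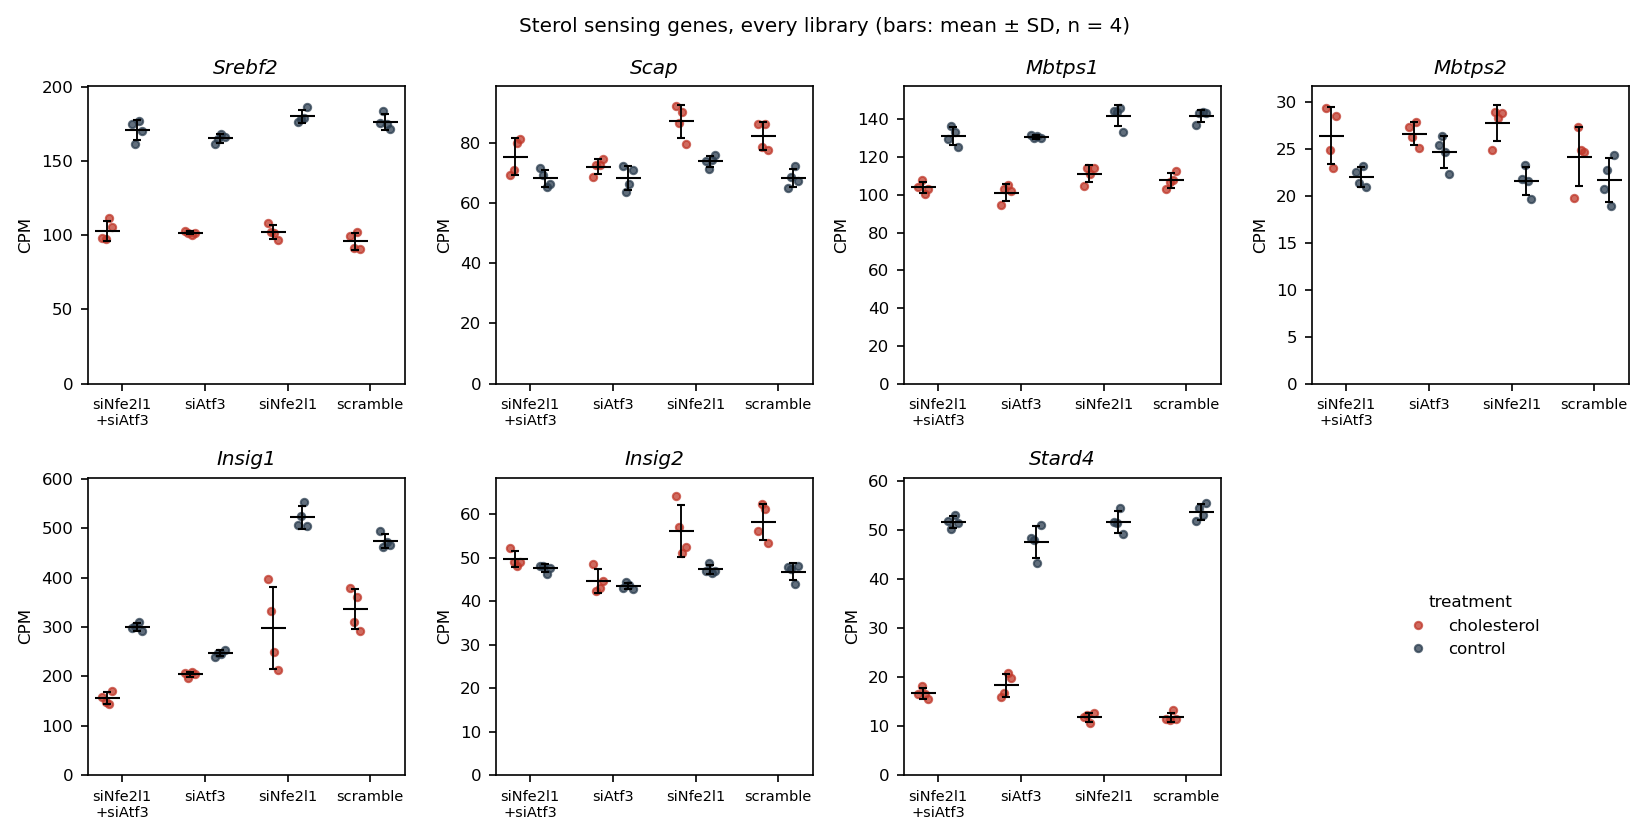
Level of each of the 7 genes in CPM (y axis, from 0) in every library, by siRNA (x axis); red points are cholesterol libraries, dark points control libraries, and bars give the mean ± SD of 4 libraries. Srebf2, Mbtps1 and Stard4 are lower in every cholesterol library than in any control library with the same siRNA, and Insig1 is lowest in double-silenced cells with cholesterol (143 to 171 CPM).

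The stretch before the start of a gene is where SREBP2 and its partner NF-Y bind, so promoter windows are shown for the transcription factor and both Insig genes, which moved in different directions. The RefSeq table of mouse promoters (build GRCm38.p6) held windows for 6 of the 7 genes, 9 windows in all, and none for Stard4. The 250 bases before each start were searched on both strands. Capitals mark matches to the shorter sterol element TCACNCCA, a form added after the data had been seen, or to the NF-Y box CCAAT, which reads ATTGG on the other strand.
Srebf2, chr15:82147019-82147268, plus strand: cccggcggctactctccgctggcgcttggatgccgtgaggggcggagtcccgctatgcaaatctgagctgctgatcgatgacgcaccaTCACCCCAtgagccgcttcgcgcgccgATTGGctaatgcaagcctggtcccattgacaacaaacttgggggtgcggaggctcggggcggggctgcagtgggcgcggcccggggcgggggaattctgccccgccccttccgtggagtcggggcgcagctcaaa
Insig1, chr5:28071162-28071411, plus strand: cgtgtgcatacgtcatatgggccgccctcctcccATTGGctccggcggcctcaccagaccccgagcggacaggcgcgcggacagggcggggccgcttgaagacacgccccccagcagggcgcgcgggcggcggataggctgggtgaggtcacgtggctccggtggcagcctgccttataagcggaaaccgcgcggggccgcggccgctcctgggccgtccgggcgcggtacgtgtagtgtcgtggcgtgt
Insig2, chr1:121332590-121332839, minus strand: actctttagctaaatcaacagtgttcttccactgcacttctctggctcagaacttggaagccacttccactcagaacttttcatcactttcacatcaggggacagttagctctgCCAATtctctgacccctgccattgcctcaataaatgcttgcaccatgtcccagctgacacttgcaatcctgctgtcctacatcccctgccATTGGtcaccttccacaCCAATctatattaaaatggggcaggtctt
The Srebf2 window held a TCACNCCA match starting at base -162 from the start and an NF-Y box at -135. The Insig1 window held an NF-Y box at -216. One of 3 Insig2 windows, the one printed, held NF-Y boxes at -136, -46 and -29. The other Insig2 windows lie at chr1:121328025-121328274 and chr1:121327679-121327928. Which start these cells use was not tested. No other window of the 6 genes held a match to any motif searched. The shorter element occurs in 3.67% of 32851 mouse windows of the same length and the NF-Y box in 33.8%. The full sterol element TCACNCCAC (1.05% of windows), the antioxidant response element TGACNNNGC (10.2%), to which NFE2L1 and its relatives bind, and the cyclic AMP response element TGACGTCA (1.55%), to which ATF3 can bind, matched none of the 9 windows. A match is a stretch of letters and not a measured binding site.

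Cholesterol lowered Stard4, Srebf2, Insig1 and Mbtps1 in each of the 4 siRNA sets, and Stard4 fell furthest. With the scrambled siRNA, 6 of the 7 genes passed the test (edgeR's quasi-likelihood test, Benjamini-Hochberg adjustment over all genes, false discovery rate 0.05), 2 higher and 4 lower. Of all genes tested, 65.2% passed, so a count of 6 of 7 is near what this comparison gave in general. All 7 genes passed with siNfe2l1 (3 higher, 4 lower), against 60.1% of all genes. With siAtf3, 4 passed, all lower, against 58.1% of all genes. In double-silenced cells 6 passed (2 higher, 4 lower), against 58.7% of all genes. The median log2 fold change of the 7 genes was -0.34 in double-silenced, -0.28 in siAtf3, -0.35 in siNfe2l1 and -0.40 in scramble cells, against a median over all genes between 0.00 and 0.01. The summed fibroblast markers were lower with cholesterol in every siRNA set. So were 4 smooth muscle markers, at 77.5 to 161 CPM with cholesterol and 403 to 611 CPM under the control treatment, and 6 endothelial markers, at 209 to 434 CPM and 443 to 610.5 CPM. The 10 macrophage markers were lower within each set, at 210.1 to 233 CPM with cholesterol and 469.9 to 511 CPM without it in double-silenced cells, and at 126 to 152 CPM and 209 to 246 CPM in scramble cells. All of these markers were detected, and their part in these changes was not tested. In a bulk sample, fewer cells of one type and less RNA per cell cannot be told apart.

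Srebf2 (ENSMUSG00000022463, GRCm39 chr15:82031382-82089580, plus strand) encodes SREBP2. In scramble cells it was at 99.7, 91.5, 102 and 90.6 CPM with cholesterol and at 176, 184, 175 and 171 CPM under the control treatment. The groups did not overlap, and cholesterol left 54.4% of the control level (log2 fold change -0.88 ± 0.05 SE, adjusted p = 3.35e-18). The other 3 siRNA sets changed in the same direction. Double-silenced cells had 103 ± 6.72 CPM with cholesterol and 171 ± 6.81 CPM without it (SD, n = 4 each), siAtf3 cells 102 ± 1.10 and 165 ± 2.86 CPM, and siNfe2l1 cells 102 ± 4.50 and 180 ± 4.32 CPM. The log2 fold changes were -0.73 with double silencing, -0.70 with siAtf3 and -0.82 with siNfe2l1 (adjusted p 6.01e-16, 1.80e-15 and 2.70e-17). All 16 cholesterol libraries were below all control libraries, and within a treatment neighbouring group means overlapped in their libraries throughout. Against scramble, no siRNA set passed for Srebf2 by edgeR under either treatment. The nearest was double silencing with cholesterol (log2 0.10, adjusted p = 0.0654), which passed without scramble cholesterol library 1 (adjusted p = 0.0412) or 3 (0.0151) or double-silenced cholesterol library 1 (0.0218) or 2 (0.0238). SiAtf3 with cholesterol passed without scramble cholesterol library 3 (0.14, adjusted p = 0.0194). With library totals alone, Srebf2 was higher than in scramble cells with cholesterol in double-silenced (0.26, adjusted p = 5.97e-06), siAtf3 (0.27, 1.65e-06) and siNfe2l1 cells (0.14, 0.0186). Under the control treatment siAtf3 passed with only the groups compared (-0.10, adjusted p = 0.0123) and by DESeq2 (-0.11, 0.0364).

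Scap (ENSMUSG00000032485, chr9:110162356-110214018, plus strand) encodes the sterol-sensing escort of SREBP2, and it moved the other way. It averaged 82.2 ± 4.60 CPM with cholesterol and 68.3 ± 3.05 CPM without it in scramble cells, and 87.2 ± 5.50 and 73.9 ± 1.89 CPM in siNfe2l1 cells (SD, n = 4 each). In neither set did the cholesterol and control libraries overlap (log2 0.27 ± 0.06 SE, adjusted p = 6.76e-05 with scramble; 0.24 ± 0.05, adjusted p = 0.000290 with siNfe2l1; edgeR). With siAtf3 the means were 72.1 ± 2.49 CPM with cholesterol and 68.3 ± 4.12 CPM without it, which did not pass (log2 0.08, adjusted p = 0.223). Double silencing gave 75.4 ± 6.05 CPM with cholesterol and 68.2 ± 2.77 CPM without it, and passed with overlapping libraries (log2 0.15, adjusted p = 0.0224). Leaving out control library 3 (adjusted p = 0.0599) or 4 (0.0540), or cholesterol library 3 (0.0772) or 4 (0.0928), ended this last call. It was also lost with library totals alone (log2 0.07, adjusted p = 0.225) and with no filter on low counts (0.12, 0.111). The differences of the silenced sets from scramble cells in this response did not pass the test for an interaction (adjusted p = 0.0996 for siAtf3 against scramble). Silenced sets were not tested against each other in this response.

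Insig1 (ENSMUSG00000045294, chr5:28276361-28283660, plus strand) encodes the retention protein that is itself a target of SREBP2. It was lowered both by cholesterol and by siAtf3. Double-silenced cells had 159, 149, 143 and 171 CPM with cholesterol and 298, 301, 309 and 291 CPM under the control treatment. In siAtf3 cells it was at 206, 196, 209 and 204 CPM with cholesterol and at 239, 248, 246 and 254 CPM without it. In siAtf3 cells Insig1 was low under the control treatment, and its step with cholesterol was small. The difference of this step from that of scramble cells did not pass the interaction test (log2 difference 0.22, adjusted p = 0.384, edgeR). It passed only in the fit of the groups compared (0.25, adjusted p = 0.0425). Libraries of siNfe2l1 cells held 397, 333, 249 and 212 CPM with cholesterol and 506, 526, 554 and 504 CPM without it. Scramble cells held 379, 311, 360 and 292 CPM with cholesterol and 494, 463, 472 and 466 CPM without it. In no siRNA set did cholesterol and control libraries overlap, and the widest spread was that of siNfe2l1 cells with cholesterol, whose libraries 3 and 4 were the low ones.

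By edgeR, cholesterol changed Insig1 by a log2 fold change of -0.95 ± 0.11 SE in double-silenced cells (adjusted p = 4.56e-08), -0.28 ± 0.11 in siAtf3 cells (0.0390), -0.81 ± 0.11 in siNfe2l1 cells (5.28e-07) and -0.50 ± 0.11 in scramble cells (0.000356). The call in siAtf3 cells was lost when any 1 of its 8 libraries was left out (adjusted p 0.0645 to 0.107). Without siNfe2l1 cholesterol library 4 the fold change in siNfe2l1 cells was -0.70, and it passed without any 1 library. Against scramble, siAtf3 lowered Insig1 under either treatment. With cholesterol the level was 46.3% of scramble in double-silenced cells (log2 -1.11 ± 0.11, adjusted p = 1.05e-08) and 60.8% in siAtf3 cells (-0.72 ± 0.11, 6.23e-06). Under the control treatment it was 63.3% with double silencing (-0.66 ± 0.11, 5.36e-05) and 52.1% with siAtf3 (-0.94 ± 0.11, 1.50e-07). These 4 comparisons share the scramble libraries of their treatment. Double silencing against siNfe2l1 alone gave -0.94 with cholesterol (adjusted p = 2.30e-07) and -0.80 without it (3.53e-06). SiNfe2l1 alone did not pass under either treatment (log2 -0.17, adjusted p = 0.310 with cholesterol; 0.14, adjusted p = 0.587 without it), but without siNfe2l1 cholesterol library 1 its difference from scramble with cholesterol was -0.35 (adjusted p = 0.00446).

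Insig2 (ENSMUSG00000003721, chr1:121232082-121260318, minus strand) encodes the second retention protein, which is not a direct target of SREBP2, and it moved against Insig1. Scramble cells held 56.1, 62.2, 61.0 and 53.3 CPM with cholesterol and 47.8, 47.4, 43.8 and 48.0 CPM under the control treatment, with no overlap (log2 0.32 ± 0.06 SE, adjusted p = 9.18e-06, edgeR). In siNfe2l1 cells it was at 64.0, 57.1, 51.0 and 52.3 CPM with cholesterol and at 47.0, 48.7, 46.4 and 46.9 CPM without it, again with no overlap (0.25 ± 0.06, adjusted p = 0.000280). Where Atf3 was silenced, the change in Insig2 with cholesterol did not pass the test. Libraries of siAtf3 cells held 48.4, 42.2, 43.0 and 44.6 CPM with cholesterol and 43.1, 44.4, 43.6 and 42.7 CPM without it (log2 0.04, adjusted p = 0.611). Double-silenced cells held 52.2, 49.0, 48.1 and 49.0 CPM with cholesterol and 48.1, 48.1, 46.3 and 47.6 CPM without it (log2 0.06, adjusted p = 0.366). These double-silenced libraries did not overlap, but only narrowly: the lowest with cholesterol was at 48.1449 CPM and the highest without it at 48.1392 CPM. With cholesterol, Insig2 was at 85.3% of scramble in double-silenced cells (log2 -0.23, adjusted p = 0.00108) and at 76.6% in siAtf3 cells (-0.38 ± 0.06, 6.35e-07), and neither set overlapped with scramble. The double-silenced difference was -0.08 (adjusted p = 0.215) when libraries were scaled by their totals alone.

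The balance between the mRNAs of the 2 retention proteins therefore shifted. The ratio of Insig1 to Insig2, in RPKM, was 3.52 ± 0.26 with cholesterol and 7.09 ± 0.29 without it in double-silenced cells (SD, n = 4 each). In siAtf3 cells it was 5.15 ± 0.28 with cholesterol and 6.38 ± 0.21 without it, and in siNfe2l1 cells 5.89 ± 1.09 and 12.4 ± 0.66. Scramble cells had a ratio of 6.49 ± 0.83 with cholesterol and 11.4 ± 0.56 without it. In each set every cholesterol library was below every control library, and the control ratios of both sets with siAtf3 were below those of both sets without it.

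Mbtps1 (ENSMUSG00000031835, chr8:120234895-120285474, minus strand) encodes the site-1 protease, a serine protease of the Golgi that makes the first cut in SREBP2. Its fall with cholesterol was the most even of the 7 across siRNA sets. The means were 104 ± 2.90 CPM with cholesterol and 131 ± 4.82 CPM without it in double-silenced cells, 101 ± 4.57 and 131 ± 0.85 CPM in siAtf3 cells, 111 ± 4.45 and 142 ± 5.65 CPM in siNfe2l1 cells, and 108 ± 3.94 and 142 ± 3.23 CPM in scramble cells (SD, n = 4 each). The log2 fold changes lay between -0.40 and -0.34 (adjusted p at most 1.31e-08 by edgeR), with no overlap in any set. Under the control treatment Mbtps1 was also slightly lower than in scramble cells with double silencing (log2 -0.11, adjusted p = 0.0416) and with siAtf3 (-0.12, adjusted p = 0.0240). These small calls were not stable. The siAtf3 call ended when scramble control library 3 (adjusted p = 0.0608) or 4 (0.0532) or siAtf3 control library 4 (0.0517) was left out. The double-silenced call ended when scramble control library 2, 3 or 4 or double-silenced control library 1, 3 or 4 was (adjusted p 0.0570 to 0.169), and scaling by library totals turned the siAtf3 value to 0.02.

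Mbtps2 (ENSMUSG00000046873, chrX:156318367-156381711, minus strand) encodes the site-2 protease, a metalloprotease that makes the second cut within the membrane. It was the least abundant of the 7, and where cholesterol changed it, it was higher. With cholesterol and without it, the means were 26.4 ± 3.01 and 22.0 ± 1.03 CPM in double-silenced cells, 26.6 ± 1.18 and 24.7 ± 1.72 CPM in siAtf3 cells, 27.7 ± 1.93 and 21.5 CPM in siNfe2l1 cells (4 control libraries from 19.6 to 23.2 CPM), and 24.1 ± 3.14 and 21.7 ± 2.35 CPM in scramble cells (SD, n = 4 each). Only in siNfe2l1 cells were all cholesterol libraries above all control libraries (log2 0.36 ± 0.08 SE, adjusted p = 0.000338, edgeR). Double-silenced cells passed as well (0.26, adjusted p = 0.00697), with overlapping libraries, but not with library totals alone (0.19, adjusted p = 0.0629). The values in siAtf3 cells (0.11, adjusted p = 0.269) and scramble cells (0.16, adjusted p = 0.107) did not pass, although the scramble value was 0.24 (adjusted p = 0.0111) without scramble cholesterol library 1 and 0.21 (0.0440) without scramble control library 4. No silenced set passed the interaction test against scramble cells for this response. Silenced sets were not tested against each other in it.

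Stard4 (ENSMUSG00000024378, chr18:33332408-33346915, minus strand) encodes the soluble sterol carrier and was the gene that cholesterol lowered most. Double-silenced cells held 16.6, 18.2, 16.5 and 15.5 CPM with cholesterol and 51.9, 50.2, 53.2 and 51.5 CPM under the control treatment. In siAtf3 cells it was at 15.8, 16.8, 20.9 and 19.8 CPM with cholesterol and at 48.4, 48.0, 43.3 and 51.1 CPM without it. Both sets with siAtf3 thus kept more Stard4 mRNA after cholesterol than the 2 sets without it. Libraries of siNfe2l1 cells held 11.8, 12.2, 10.6 and 12.6 CPM with cholesterol and 51.7, 51.5, 54.6 and 49.1 CPM without it. Scramble cells held 11.4, 11.2, 13.2 and 11.5 CPM with cholesterol and 51.9, 54.6, 53.1 and 55.6 CPM without it. Every cholesterol library was far below every control library.

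Cholesterol left 32.4% of the control level of Stard4 in double-silenced cells (log2 -1.63 ± 0.07 SE, adjusted p = 6.76e-21), 38.5% in siAtf3 cells (-1.38 ± 0.07, 7.40e-19), 22.8% in siNfe2l1 cells (-2.13 ± 0.07, 1.42e-23) and 22.0% in scramble cells (-2.18 ± 0.07, 8.70e-24; edgeR). Set directly against scramble cells with cholesterol, Stard4 was at 141% in double-silenced cells (log2 0.50 ± 0.08, adjusted p = 1.76e-06) and at 155% in siAtf3 cells (0.63 ± 0.08, 1.07e-08), with no overlap in either. In the siNfe2l1 comparison the level was 99.7% of scramble (adjusted p = 0.975). Under the control treatment siAtf3 cells were slightly below scramble (log2 -0.18, adjusted p = 0.0300). This small call ended when scramble control library 2 (adjusted p = 0.0570) or 4 (0.0750) or siAtf3 control library 3 (0.125) was left out, and the value was -0.04 (adjusted p = 0.670) with library totals alone.

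**Figure D2:**
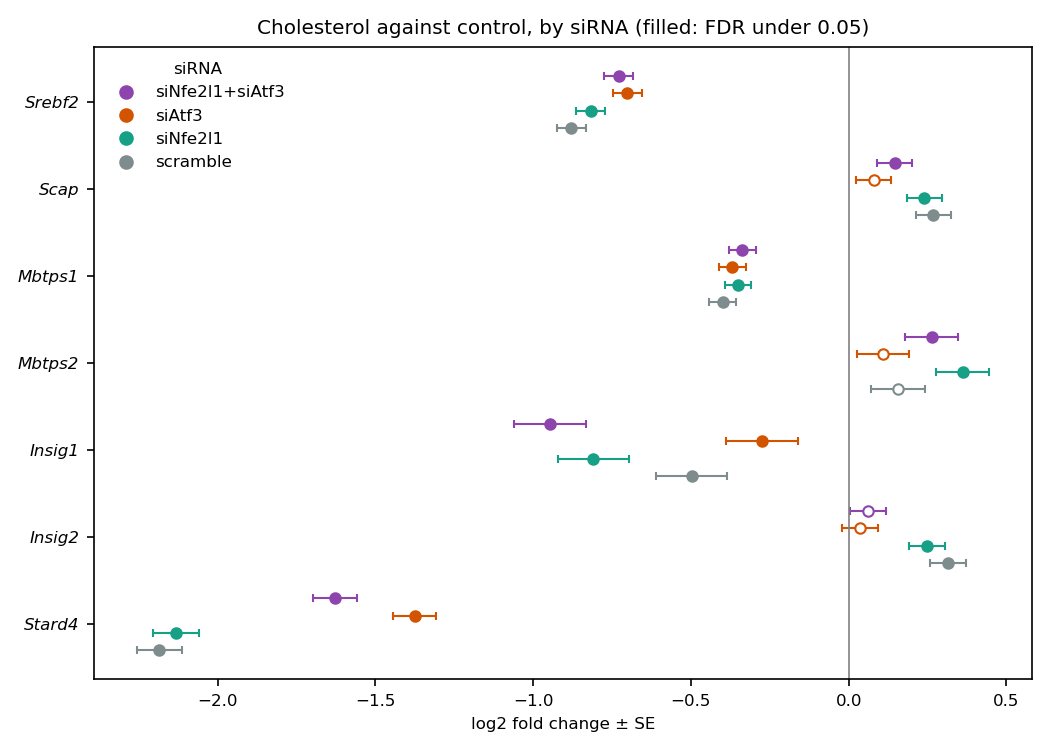
Log2 fold change ± SE (x axis) of each gene for cholesterol against control in each siRNA set; filled points passed at a false discovery rate of 0.05. Stard4 lies at -2.18 and -2.13 with scramble and siNfe2l1 and at -1.38 and -1.63 in the 2 sets with siAtf3, whereas Mbtps1 lies between -0.40 and -0.34 in all.

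Whether the response to cholesterol differed between siRNA sets was tested with interactions (the log2 fold change in the silenced set minus that in scramble cells). The interactions with double silencing, siAtf3 and siNfe2l1 share the response of scramble cells. For siAtf3, 2 of the 7 genes passed, against 15.3% of all genes tested: Stard4, whose fall was smaller (log2 difference 0.81 ± 0.10 SE, adjusted p = 1.28e-06, edgeR), and Insig2, whose rise was smaller (-0.28 ± 0.08, adjusted p = 0.0170). Double silencing gave the same 2 genes, against 13.7% of all genes, with 0.56 ± 0.10 for Stard4 (adjusted p = 0.000449) and -0.25 ± 0.08 for Insig2 (0.0308). The Stard4 differences passed in every alternative fit and with any 1 library left out. Those of Insig2 did not. For siAtf3 the Insig2 call was lost without scramble control library 3, siAtf3 control library 2, scramble cholesterol library 2 or 3, or siAtf3 cholesterol library 2 or 3 (adjusted p 0.0525 to 0.0706). For double silencing it was lost without any 1 of 10 of the 16 libraries (adjusted p 0.0514 to 0.0836), namely scramble control library 2 or 3, scramble cholesterol library 2 or 3, double-silenced control library 1, 2 or 4, or double-silenced cholesterol library 2, 3 or 4. Near the threshold lay Srebf2 for siAtf3 (0.18 ± 0.07, adjusted p = 0.0587) and Insig1 for double silencing (-0.45 ± 0.16, adjusted p = 0.0587). Insig1 for double silencing passed by the DESeq2 Wald test (adjusted p = 0.0210) and with only the groups compared (0.00167). Srebf2 for siAtf3 passed by the DESeq2 Wald test (0.0225), with DESeq2 size factors (0.0487), with library totals alone (0.00938) and with only the groups compared (0.0250). Srebf2 passed when any 1 of 12 of the 16 libraries was left out (adjusted p 0.0158 to 0.0463), the exceptions being scramble control library 2, siAtf3 control library 1 and scramble cholesterol libraries 2 and 4. For double silencing, Srebf2 passed without scramble cholesterol library 3 (0.19, adjusted p = 0.0489) and with library totals alone (0.20, 0.0209). Insig1 passed there without scramble cholesterol library 4 (-0.50, adjusted p = 0.0339).

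For siNfe2l1 the interaction with cholesterol passed for 0 of the 7 genes by edgeR (0 at an unadjusted p under 0.05, and 0 by DESeq2 and by limma-voom), against 0.247% of all genes. Without siNfe2l1 cholesterol library 1, Insig1 passed (-0.50, adjusted p = 0.0128), and the number of all genes that passed was 1337 in place of 42. The interaction of both siRNAs asks whether the double-silenced level departs from the sum of the single log2 changes. It passed for 0 of the 7 genes with cholesterol (1 at an unadjusted p under 0.05) against 5.09% of all genes, and for 0 under the control treatment (0 at an unadjusted p under 0.05) against 1.93% of all genes, by edgeR. DESeq2 and limma-voom gave 0 in both. Without siNfe2l1 cholesterol library 1, Insig2 passed with cholesterol (0.27, adjusted p = 0.0114), and 2295 of all genes did in place of 865.

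The siRNA sets were also compared within a treatment. With cholesterol, double silencing changed 3 of the 7 genes against scramble (1 higher, 2 lower) where 44.7% of all genes passed, and siAtf3 changed 4 (1 higher, 3 lower) where 50.4% passed. The genes were Stard4, Insig1 and Insig2 in both, with Scap in siAtf3 cells (log2 -0.19, adjusted p = 0.00440 by edgeR, but -0.001 and 0.986 with library totals alone). Against siNfe2l1 alone, double silencing changed 4 genes with cholesterol (36.6% of all genes): Stard4 was higher (log2 0.50, adjusted p = 1.73e-06), and Insig1, Insig2 (-0.18, 0.0124) and Scap (-0.21, 0.00266) were lower. The Scap call was lost with library totals alone (-0.10, adjusted p = 0.102) and without the libraries numbered 1 (-0.14, 0.0557). That of Insig2 was lost without siNfe2l1 cholesterol library 1 (-0.09, adjusted p = 0.202) or 2 (0.0557) or double-silenced cholesterol library 2 (0.0516), 3 (0.0674) or 4 (0.0558). The Insig2 call was also lost with library totals alone (-0.07, adjusted p = 0.289) and with no filter (0.0923). So it was with only the groups compared (0.0980) and without the libraries numbered 1 (0.0685). SiNfe2l1 alone changed 0 of the 7 genes with cholesterol by edgeR (1 at an unadjusted p under 0.05, 0 by DESeq2 and by limma-voom), against 19.9% of all genes. Mbtps2 passed there without scramble cholesterol library 2 (0.25, adjusted p = 0.0458) or siNfe2l1 cholesterol library 1 (0.24, 0.0410), and without this siNfe2l1 library Insig1 passed as well.

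Under the control treatment the changes were fewer. Double silencing lowered 2 genes against scramble, Insig1 and Mbtps1, where 27.2% of all genes passed, and siAtf3 lowered 3, these and Stard4, where 36.3% passed. Double silencing against siNfe2l1 alone lowered the same pair (26.8% of all genes), with Mbtps1 at -0.11 (adjusted p = 0.0437 by edgeR), a call lost without siNfe2l1 control library 1, 2 or 3 or double-silenced control library 1 or 4 (adjusted p 0.0730 to 0.136). SiNfe2l1 changed 0 of the 7 genes by edgeR (1 at an unadjusted p under 0.05, 0 by DESeq2 and by limma-voom), against 5.99% of all genes, with log2 fold changes from -0.06 to 0.14. These comparisons share the scramble or siNfe2l1 libraries of their treatment. The fibroblast markers summed to 13760 to 14490 CPM in double-silenced, 12210 to 12710 in siAtf3, 21240 to 22830 in siNfe2l1 and 19160 to 20160 CPM in scramble control libraries. These sums were lower in both sets with siAtf3 than in scramble libraries. With cholesterol they were at 3468 to 4100, 2882 to 3211, 7441 to 7897 and 6053 to 6824 CPM in the same order of siRNAs. The macrophage markers summed under the control treatment to 469.9 to 511 CPM in double-silenced, 289 to 378 in siAtf3, 280.2 to 425 in siNfe2l1 and 209 to 246 CPM in scramble libraries. With cholesterol they were at 210.1 to 233, 137 to 172, 231 to 275 and 126 to 152 CPM in that order. The endothelial markers were at 480.4 to 500.0, 443 to 466, 549 to 595 and 557 to 610.5 CPM under the control treatment, and at 241 to 283, 209 to 241, 339 to 434 and 284 to 375 CPM with cholesterol. The smooth muscle markers were at 403 to 454, 412 to 495, 467 to 611 and 446.5 to 492 CPM under the control treatment. With cholesterol they were at 101 to 124, 138 to 161, 80.0 to 119 and 77.5 to 98.0 CPM, higher in both sets with siAtf3 than in scramble libraries. Single markers did not all follow their sum. In siAtf3 against scramble cells under the control treatment, the fibroblast marker Col3a1 was lower (log2 -1.24, adjusted p = 2.02e-18, edgeR) but Pdgfra was higher (0.24, 0.00329). The macrophage marker C1qb was higher (0.64, 6.09e-06) but Csf1r was lower (-0.53, 0.000107). The part of these markers in the lower Insig1 and higher Stard4 levels was not tested.

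**Figure D3:**
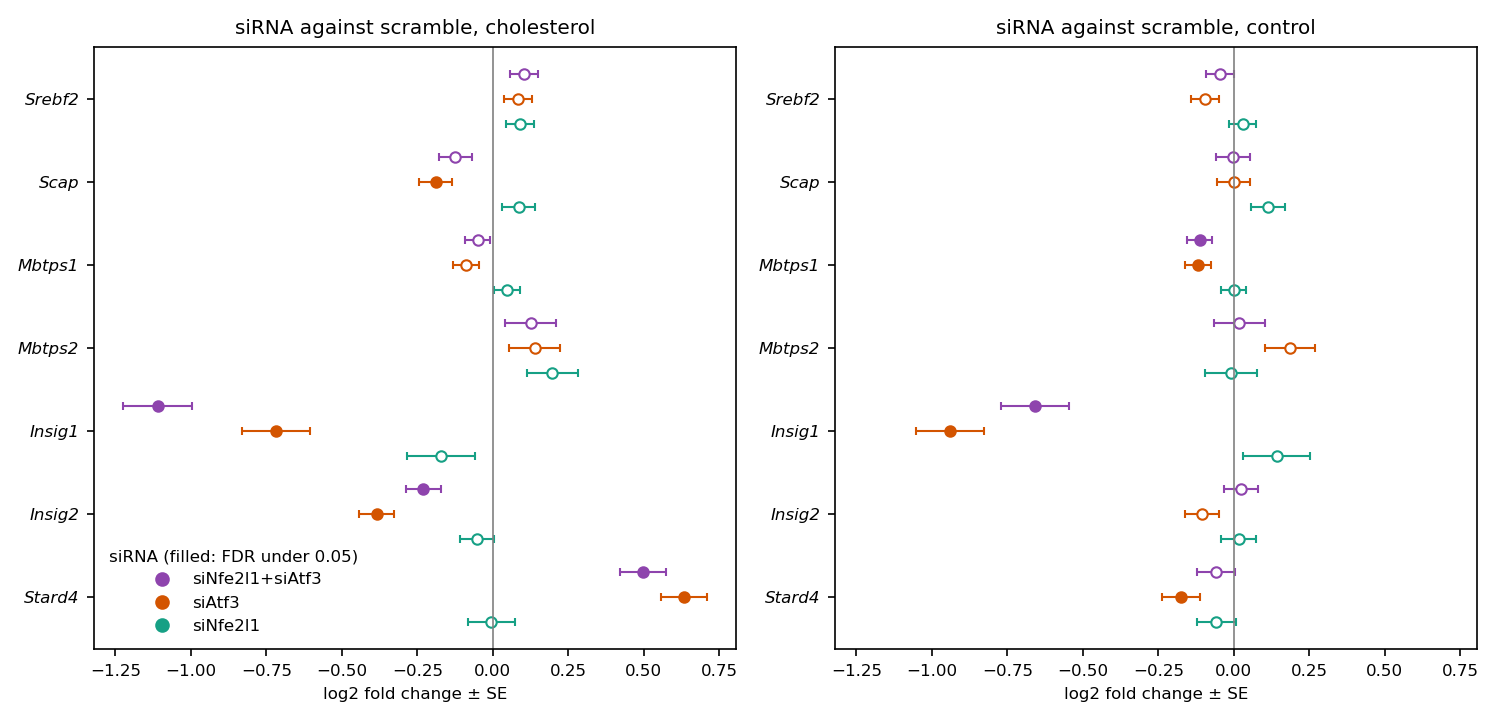
Log2 fold change ± SE (x axis) of each gene against scramble cells of the same treatment, for cholesterol (left) and control treatment (right); filled points passed at a false discovery rate of 0.05. Insig1 is low with siAtf3 alone or in double silencing in both panels, Stard4 is high (0.50 and 0.63) in the cholesterol panel, and no siNfe2l1 point is filled.

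The targets of the pathway were read from a list of 22 cholesterol synthesis enzymes. With cholesterol in scramble cells, 3 were higher and 16 lower (median log2 fold change -0.42, against 0.00 over all genes), where 65.2% of all genes passed. Sqle, the squalene epoxidase, fell by 1.30 on the log2 scale, Msmo1, a sterol methyl oxidase, fell by 1.41 and Hmgcs1, which makes the HMG-CoA of the mevalonate pathway, fell by 1.12. With siAtf3 under the control treatment 1 was higher and 11 lower (median -0.21), where 36.3% of all genes passed, among them Acat2 (-0.76), which joins acetyl-CoA units, and Sqle (-0.36). In cholesterol, siAtf3 cells had 3 higher and 9 lower than scramble cells (50.4% of all genes), with Hmgcs1 higher (0.65) and Acat2 (-0.82) and Sqle (-0.45) lower. The interaction of cholesterol with siAtf3 passed for 5 of the 22 enzymes, against 15.3% of all genes, all with a positive difference, the sign that Stard4 had (median 0.11, against -0.01 over all genes). Hmgcs1 had a difference of 0.67 ± 0.08 SE (adjusted p = 1.72e-06), and Msmo1 one of 0.32 ± 0.10 (0.0211, edgeR).

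A second list held 16 genes of SREBP1 and fatty acid synthesis. With cholesterol in scramble cells 9 were higher and 4 lower (median 0.23), where 65.2% of all genes passed. Elovl6, a fatty acid elongase, was at a log2 fold change of -0.96 and Fasn, the fatty acid synthase, at -1.51, whereas Acly, the ATP citrate lyase, was higher by 0.62 and Thrsp, a lipogenic regulator, by 0.88. With siAtf3 under the control treatment 0 were higher and 10 lower (median -0.55), against 36.3% of all genes, led by Fads1, a fatty acid desaturase (-2.04), Acly (-1.43) and Elovl6 (-1.16). In cholesterol 2 were higher and 11 lower in siAtf3 cells (median -0.51), against 50.4% of all genes.

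Factors that act on SCAP and the Insig proteins were mixed with cholesterol in scramble cells, the comparison in which 65.2% of all genes passed. Of 12 genes of the COPII coat, which buds the vesicles that carry SCAP and SREBP2 out of the endoplasmic reticulum, 6 were higher and 4 lower, and the paralogues Sec23b (0.63) and Sec23a (-0.63) moved in opposite directions. Of 15 genes for ubiquitin ligases, erlins and other parts of sterol-regulated protein degradation, 8 were higher and 3 lower. Ube2g2, a ubiquitin-conjugating enzyme of the endoplasmic reticulum, was higher by 0.83, and Nploc4, a cofactor of the p97 extraction machine, by 0.35. Of 6 other cofactors of SCAP and SREBP, Pgrmc1 (0.62), a haem-binding membrane protein, and Spring1 (0.51), which activates the site-1 protease, were higher and Trim21 (-1.04), a ubiquitin ligase, was lower. Of 8 other substrates of the 2 proteases, 2 were higher and 3 lower: Atf6, the sensor of unfolded proteins, was at 1.00 and Creb3l2 at 0.52, and Creb3l1 was at -0.71, all transcription factors released by the same cuts.

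Other proteins that bind or move sterols were read from a list of 15 START, Aster, oxysterol-binding and NPC proteins. With cholesterol in scramble cells 9 were higher, 0 were lower and 6 did not pass (median 0.27), where 65.2% of all genes passed. Star, which brings cholesterol into mitochondria, was at 2.62 and Gramd1b, an Aster protein that moves cholesterol from the plasma membrane to the endoplasmic reticulum, at 2.28. Stard5, another soluble carrier, was higher by 0.60. Of 12 LXR genes (targets of these oxysterol receptors, and the receptors themselves), 8 were higher and 1 lower (median 0.32), including Abcg1 (1.28) and Abca1 (1.04), both cholesterol exporters. Of 12 genes of the integrated stress response, 11 were higher and 0 lower (median 1.73), such as Slc7a11 (3.05), the cystine transporter.

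**Figure D4:**
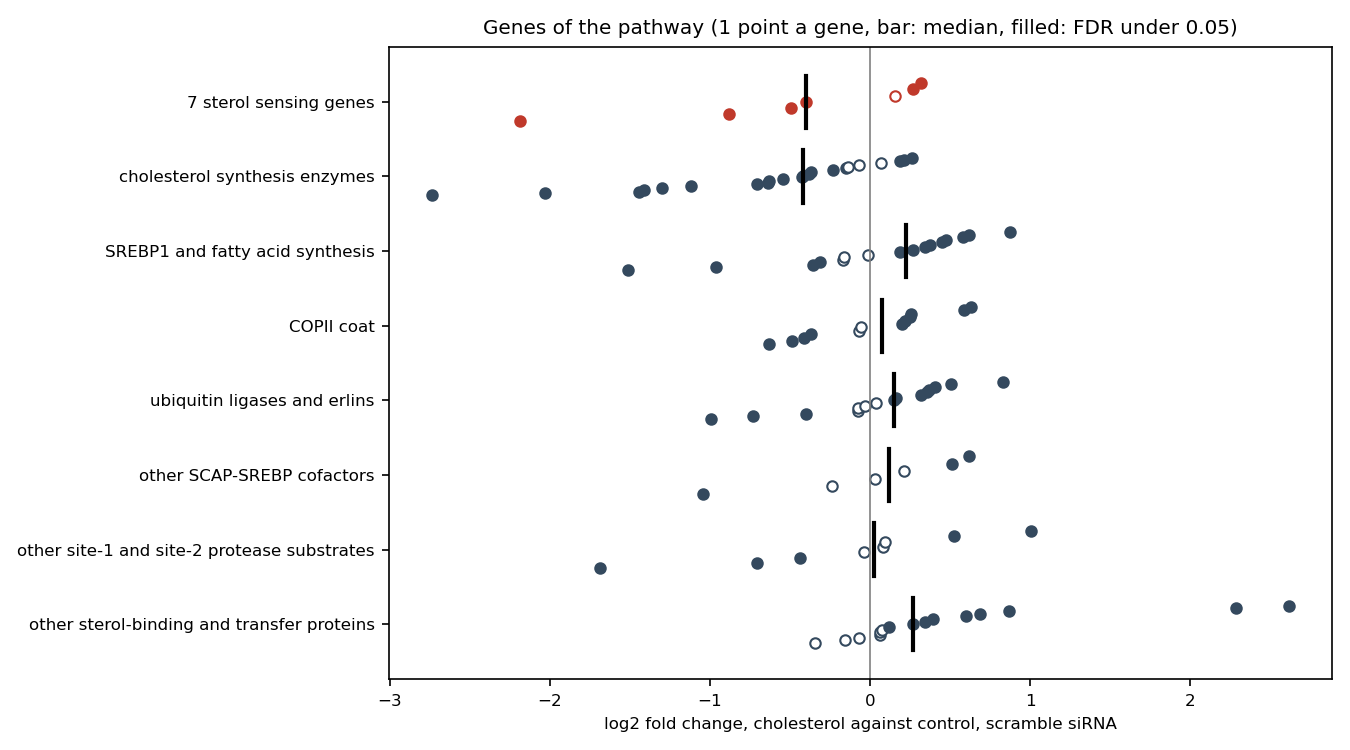
Log2 fold change for cholesterol against control in scramble cells (x axis) of the 7 genes (red) and of 7 lists of other genes of the pathway (dark); each point is a gene, filled points passed at a false discovery rate of 0.05, and bars are list medians. The medians of the 7 genes and of the synthesis enzymes lie at -0.40 and -0.42, and that of the other sterol-binding and transfer proteins at 0.27.

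Genes with the pattern most like each of the 7 were taken by Pearson's r of log2 CPM over 32 libraries, among 10895 protein-coding genes. The libraries fall into 2 clusters by treatment, and r over all of them mostly follows that split, so r within each treatment is given as well. For Insig1 the nearest genes were Ccdc80 (r = 0.948 over all, 0.892 within cholesterol, 0.971 within control), Azin2 (0.940, 0.910 and 0.985) and Adamts4 (0.935, 0.870 and 0.974), the first of which encodes a secreted protein of the matrix and the last a matrix protease. For Mbtps1 it was Lox, the collagen cross-linking enzyme (0.986, 0.860 and 0.911), and for Stard4 it was Maged1 (0.988), whose r was 0.848 within cholesterol and -0.05 within control. Srebf2 was nearest to Cyp1b1 (0.984 over all, 0.298 within cholesterol and 0.043 within control). Nearest to Insig2, Scap and Mbtps2 were Xylt1 (0.897 over all, 0.902 within cholesterol and 0.700 within control), Syk (0.899, 0.892 and 0.652) and Arhgap29 (0.839, 0.889 and 0.422). Within a treatment r still holds the differences between siRNA sets. With the mean of each group taken off, r was 0.691 for Ccdc80, 0.469 for Azin2, 0.441 for Adamts4 and 0.697 for Lox. It was 0.002 for Maged1, 0.152 for Cyp1b1, 0.394 for Xylt1, 0.617 for Syk and 0.705 for Arhgap29.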

How the data were processed

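RNA of 32 libraries was sequenced after poly(A) selection. Per the submitters' processing notes, reads were handled with fastp, HISAT2 2.0.5 and featureCounts 1.5.0-p3 on GRCm39. Strandedness and the treatment of multiply mapped reads are not given in the sources used here. The authors deposited raw read counts per gene for 56748 genes, and no scaling was applied to these counts. An added C in a column name was read as cholesterol, since the labels give no other key.

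Analyses used R 4.3.3. Genes were filtered by group with filterByExpr of edgeR 4.0.16 (minimum count 10, minimum total 15), which kept 16984. Libraries were scaled by TMM (factors 0.886 to 1.1), a single robust quasi-likelihood fit of 8 group means left 24 residual degrees of freedom, and 12 comparisons of groups and 5 interactions were tested. P-values were adjusted over all genes by the Benjamini-Hochberg method, with a false discovery rate of 0.05. The SE given with a log2 fold change is its absolute value divided by the square root of the F statistic of its test. CPM use TMM-scaled totals, and RPKM the deposited gene lengths. Libraries held 23457384 to 33828418 counts, and the lowest count of any of the 7 genes in a library was 243, for Stard4. The fit was tested on simulated data.

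The 7 genes and all lists were chosen with earlier results of these data known. Named were the 7 genes, Nfe2l1 and Atf3, up to 4 called genes per list with the smallest adjusted p in a comparison described, and the 3 protein-coding genes (average log2 CPM at least 2) most correlated with each of the 7. Pdgfra was named as well, as a marker that went against the sum of its list. Only some of them are printed; others are not reported here. All reported values come from the fit of group means, in which replicate numbers were not treated as pairs. Same-numbered libraries deviated together with a correlation over 0.1 in every pair only for siAtf3 against scramble with cholesterol (0.173 to 0.359). A replicate block, run as an alternative, left 4 genes called there. Alternatives were DESeq2 1.42.0 size factors, library totals alone, no filter, the DESeq2 Wald test, limma-voom (limma 3.58.1), a fit of only the groups compared, a replicate block, leaving out each library in turn, and leaving out the 8 libraries numbered 1.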

Additional observations from a re-analysis of the deposited data

Results flagged for a closer look

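Each group of 4 libraries was screened for a library far from the others with Dixon's criterion, which chance passes in about 1 group of 20. Of 56 gene and group pairs, 3 were marked. Stard4 in scramble cholesterol library 3 was at 13.2 CPM, above the other libraries of its group. Insig2 in scramble control library 3 was at 43.8 CPM, and Mbtps1 in scramble control library 1 at 137 CPM, both below the others. Of 35 interaction tests, 4 passed, and all 4 asked whether the response to cholesterol differed between silenced and scramble cells. The 35 tests also held the interactions of both siRNAs within a treatment, which do not test that response. Of all genes, 15.3% passed the interaction of cholesterol with siAtf3, 13.7% that with double silencing and 0.247% that with siNfe2l1. For siAtf3 the log2 difference was 0.81 for Stard4 and -0.28 for Insig2. For double silencing it was 0.56 for Stard4 and -0.25 for Insig2.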

How the results depend on the processing

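Of 45 calls among the 7 genes, 32 held in every alternative fit and 13 were lost in at least 1. Among the values called in some fit, 1152 alternative fits gave 1005 with the same direction and side of the threshold, 73 lost calls, 62 new calls and 12 reversals, and 52 values were called in none. With library totals alone, the median of all genes shifted to 0.14 with double silencing and 0.17 with siAtf3 against scramble with cholesterol, to 0.11 and 0.15 under the control treatment, to 0.10 for double silencing against siNfe2l1 under the control treatment, and to -0.12 for cholesterol in scramble cells. The reversals under this scaling were, for siAtf3 against scramble, Insig2 0.0317, Srebf2 0.0426, Scap 0.137 (adjusted p = 0.0287) and Mbtps1 0.0187 under the control treatment and Mbtps1 0.0976 with cholesterol, Scap 0.0269 for double silencing against scramble with cholesterol, and Mbtps1 0.0051 for double silencing against siNfe2l1 with cholesterol. Without the libraries numbered 1, Mbtps2 was -0.0112 for double silencing against scramble with cholesterol. With a library left out, Scap for siAtf3 against scramble under the control treatment ran from -0.0354 to 0.0253, and Srebf2 for double silencing against siNfe2l1 with cholesterol from -0.0073 to 0.0582.

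The number of the 7 genes called moved most for small effects. Under the control treatment, double silencing gave 1 against scramble and 1 against siNfe2l1, with library totals and with no filter (2 in each as reported), and 1 to 2 with a library left out; against siNfe2l1 it was also 1 with only the groups compared and without the libraries numbered 1. SiAtf3 against scramble under the control treatment gave 6 with only the groups compared (2 to 3 with a library left out, 3 as reported). SiNfe2l1 against scramble with cholesterol gave 2 with library totals and 0 to 2 with a library left out (0 as reported). The interaction with siAtf3 gave 1 with no filter, 4 with only the groups compared, 3 with the replicate block and 1 to 3 with a library left out, and that with double silencing 1 with no filter, 3 with the DESeq2 Wald test and 1 to 3 with a library left out (2 each as reported). The interaction with siNfe2l1 ran from 0 to 1, and that of both siRNAs with cholesterol from 0 to 1, with 1 without the libraries numbered 1 (0 each as reported). The cause of these moves was not tested.

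Over all genes, the interaction with siNfe2l1 called 42 genes, but 72 with no filter, 344 with DESeq2, 2 with only the groups compared, 143 with the replicate block, 670 without the libraries numbered 1 and 1337 without siNfe2l1 cholesterol library 1. The interaction of both siRNAs called 865 genes with cholesterol (1337 with DESeq2, 259 with only the groups compared, 1605 without the libraries numbered 1, 510 to 2295 with a library left out) and 328 under the control treatment (557 with DESeq2, 757 with only the groups compared, 214 at the lowest with a library left out). SiNfe2l1 against scramble with cholesterol called 3382, but 645 with only the groups compared and 2153 without siNfe2l1 cholesterol library 3. With library totals in place of TMM, the share of calls that were higher was 38.9% in place of 50.4% for cholesterol in scramble cells. It was 72.5% in place of 46.6% for double silencing and 71.2% in place of 45.6% for siAtf3 against scramble with cholesterol, and 74.8% in place of 47.5% and 76.0% in place of 49.8% under the control treatment. For double silencing against siNfe2l1 it was 66.2% in place of 43.0% with cholesterol and 73.2% in place of 45.9% without it, and for siNfe2l1 against scramble with cholesterol 72.5% in place of 56.9%. For the interactions it was 60.0% in place of 47.5% (double silencing), 51.8% in place of 40.5% (siAtf3), and 21.3% in place of 54.9% and 46.8% in place of 70.7% (both siRNAs, with cholesterol and without it).

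Apart from siAtf3 against scramble with cholesterol, same-numbered libraries did not deviate together in every pair (correlations from -0.138 to 0.55). The reported values, also those of siAtf3 against scramble with cholesterol, come from the fit without pairs. The replicate block changed the number of the 7 genes called in 1 of 17 comparisons, where Srebf2 joined the interaction with siAtf3 (0.18, adjusted p = 0.0486), and it changed no other call. Each of the 7 genes had at least 243 counts per library, and the part of counting error in their spread was not tested.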
